A study of Mus musculus with 10 samples.

Results

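Zic1, Zic4, Tfap2b, Foxd2 and Foxe3 are developmental transcription factor genes outside the Hox clusters. In mouse embryonic stem cells the genome windows chosen for them held 3 wide domains of H3K27me3. The members were chosen by position in mouse build mm9. They are the enriched intervals (islands) that overlap chr9:91235000-91325000 for Zic1 and Zic4, chr1:19180000-19250000 for Tfap2b, and chr4:114555000-114620000 for Foxd2 and Foxe3. These windows held 38 of the 84243 islands in the 4 deposited lists. The H3K27me3 islands numbered 7 in WT and 11 in KO, and the H3K4me3 islands 8 and 12. The domains were picked with the H3K27me3 lists of both genotypes known, so their width and their H3K27me3 difference are given as a description, with no test.

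The study compared mouse embryonic stem cells of strain 129/C57BL/6 with BAF250a (WT) and without it (KO). BAF250a, the product of Arid1a, is a DNA-binding subunit of the BAF (SWI/SNF) nucleosome remodelling complex. All cells were kept on embryonic fibroblast feeders with serum and LIF, and the share of feeder chromatin was not analysed here. KO cells were exposed to 1 µM 4-hydroxytamoxifen for 36 hours and WT cells to ethanol for 36 hours, from 4 hours after passage. Genotype and drug therefore cannot be told apart, and the labels do not name the Cre driver or the number of clones. There was 1 library per genotype and mark, so no difference below could be set against a spread between replicates. The lists give no gene names, so stem cell and fibroblast markers were not analysed here.

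H3K27me3 is laid down by Polycomb repressive complex 2 and marks silent developmental genes. H3K4me3 is laid down by SET1 and MLL complexes and marks promoters. In embryonic stem cells many silent developmental promoters carry both, a state called bivalent, and Polycomb is drawn to stretches of unmethylated CG dinucleotides. Zic1 and Zic4 are zinc finger factors of the developing cerebellum and dorsal neural tube, and lie next to each other on opposite strands. Tfap2b encodes AP-2 beta, a factor of neural crest, kidney and limb development. Foxd2 is a forkhead factor of paraxial mesoderm and kidney, and Foxe3 is a forkhead factor of the lens. In RefSeq the lncRNA gene Foxd2os lies between Foxd2 and Foxe3.

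Promoter sequences are shown for the pairs of genes that share a window, because their CG content differed within each pair. Each is the 250 bases before the RefSeq gene start in build GRCm38.p6, written 5′ to 3′ on the gene's own strand, with CG in capitals. The positions are GRCm38.p6 and cannot be laid over the mm9 islands.
Zic1, minus strand, chr9:91365769-91366018: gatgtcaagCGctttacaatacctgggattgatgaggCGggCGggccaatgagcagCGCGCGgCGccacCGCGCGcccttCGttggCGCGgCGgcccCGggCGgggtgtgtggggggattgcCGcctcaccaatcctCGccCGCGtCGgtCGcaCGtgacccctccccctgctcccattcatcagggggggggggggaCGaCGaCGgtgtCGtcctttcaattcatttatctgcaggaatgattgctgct
Zic4, plus strand, chr9:91368722-91368971: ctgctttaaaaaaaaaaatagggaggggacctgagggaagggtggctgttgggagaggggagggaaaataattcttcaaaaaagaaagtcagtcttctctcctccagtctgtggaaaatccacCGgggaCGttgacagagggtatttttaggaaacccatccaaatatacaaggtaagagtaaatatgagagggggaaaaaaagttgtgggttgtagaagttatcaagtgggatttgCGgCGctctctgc
Foxd2, minus strand, chr4:114908899-114909148: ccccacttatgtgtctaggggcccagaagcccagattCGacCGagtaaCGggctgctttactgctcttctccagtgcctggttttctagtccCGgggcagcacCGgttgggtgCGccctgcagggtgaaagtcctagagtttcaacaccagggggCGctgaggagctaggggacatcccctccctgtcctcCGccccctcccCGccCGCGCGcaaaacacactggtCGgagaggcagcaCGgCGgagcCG
Foxe3, minus strand, chr4:114926068-114926317: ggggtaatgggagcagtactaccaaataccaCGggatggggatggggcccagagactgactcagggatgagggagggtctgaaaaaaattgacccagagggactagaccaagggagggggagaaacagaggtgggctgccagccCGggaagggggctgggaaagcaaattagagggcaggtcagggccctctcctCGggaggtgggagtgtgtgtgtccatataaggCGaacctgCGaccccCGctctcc
The motif CG reads the same on both strands. It occurred 27 times before Zic1 and 4 times before Zic4, and 16 times before Foxd2 and 6 times before Foxe3. Of 27025 mouse promoters of the same length, 8.16% held as many CG as Zic1, 61.9% as many as Zic4, 25.6% as many as Foxd2 and 50.5% as many as Foxe3. The Tfap2b promoter held 5, a number reached by 55.5% of promoters. The median over all promoters was 6, so Zic1 and Foxd2 stood above it, Foxe3 was at it, and Zic4 and Tfap2b were below it. All 5 genes matched the table, which gives 1 start per gene.

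At Zic1 and Zic4, the domain was the longest of the 3 and was called as shorter pieces in KO. In WT a single H3K27me3 island of 67.2 kb, chr9:91241601-91308800, held 3688 ChIP reads at a deposited fold over input of 3.84. It was the sixth longest of the 8067 WT islands (rank 6). Smaller WT islands stood beside it, of 3.6 kb with 72 reads on one side and of 7.8 kb with 238 reads and 2.6 kb with 59 reads on the other. In KO, islands of 17.4, 15 and 35.4 kb overlapped the long WT island, with 487, 443 and 1001 reads. A KO island of 3.6 kb with 83 reads lay inside the WT island of 7.8 kb. The KO island of 35.4 kb also ran across a gap of 3.2 kb between the WT islands of 67.2 and 7.8 kb. The largest KO piece, chr9:91278401-91313800, had a fold of 3.72, close to the WT island, while the pieces to its left had folds of 2.96 and 2.60. The outer WT islands of 3.6 and 2.6 kb had no KO island. They were the only ones without a KO partner among the 7 WT H3K27me3 islands of the windows (28.6%). Such a lack was common, as only 49.6% of the 8067 islands in the whole WT list overlapped a KO island.

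The number of Zic islands was 4 in each genotype, but they were cut differently. The longest island made up 82.8% of the called length in WT and 49.6% in KO. Called length was 81.2 kb in WT and 71.4 kb in KO, of which 68.2 kb was called in both, 13 kb in WT only and 3.2 kb in KO only. Gaps between KO islands were 0.8 to 2.2 kb. Gaps between WT islands were 1.6 to 5 kb and lay outside the long island.

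Tfap2b kept a long island in both genotypes. In WT a single island of 45.8 kb, chr1:19190601-19236400, held 2139 reads at 4.32-fold. In KO an island of 50.2 kb, chr1:19192801-19243000, held 1304 reads at 3.48-fold, and a piece of 3.2 kb with 59 reads lay 0.8 kb to its left. The called length was therefore greater in KO, 53.4 kb against 45.8 kb, and 98.3% of the WT length was called in KO. The KO domain reached 8.4 kb beyond the WT island in all. The nearest islands past the window were at chr1:19256401-19258800 in WT (56 reads, 8.35-fold) and chr1:19252801-19260600 in KO (134 reads, 1.76-fold).

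The Foxd2 and Foxe3 domain had the lowest enrichment of the 3 in WT and was cut into the most pieces in KO. In WT an island of 43.8 kb, chr4:114568601-114612400, held 1661 reads at 2.08-fold, and an island of 2.6 kb with 56 reads lay 0.8 kb to its left. In KO there were 5 islands, of 4, 12.6, 10.8, 9.6 and 2.6 kb, holding 71, 339, 264, 196 and 52 reads. Their folds were 2.09, 2.34, 2.29, 1.70 and 2.53. The longest island was 94.4% of the called length in WT and 31.8% in KO. Called length was 46.4 kb in WT and 39.6 kb in KO, and the span from first to last island was nearly equal, 47.2 kb and 47.8 kb.

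**Figure D1:**
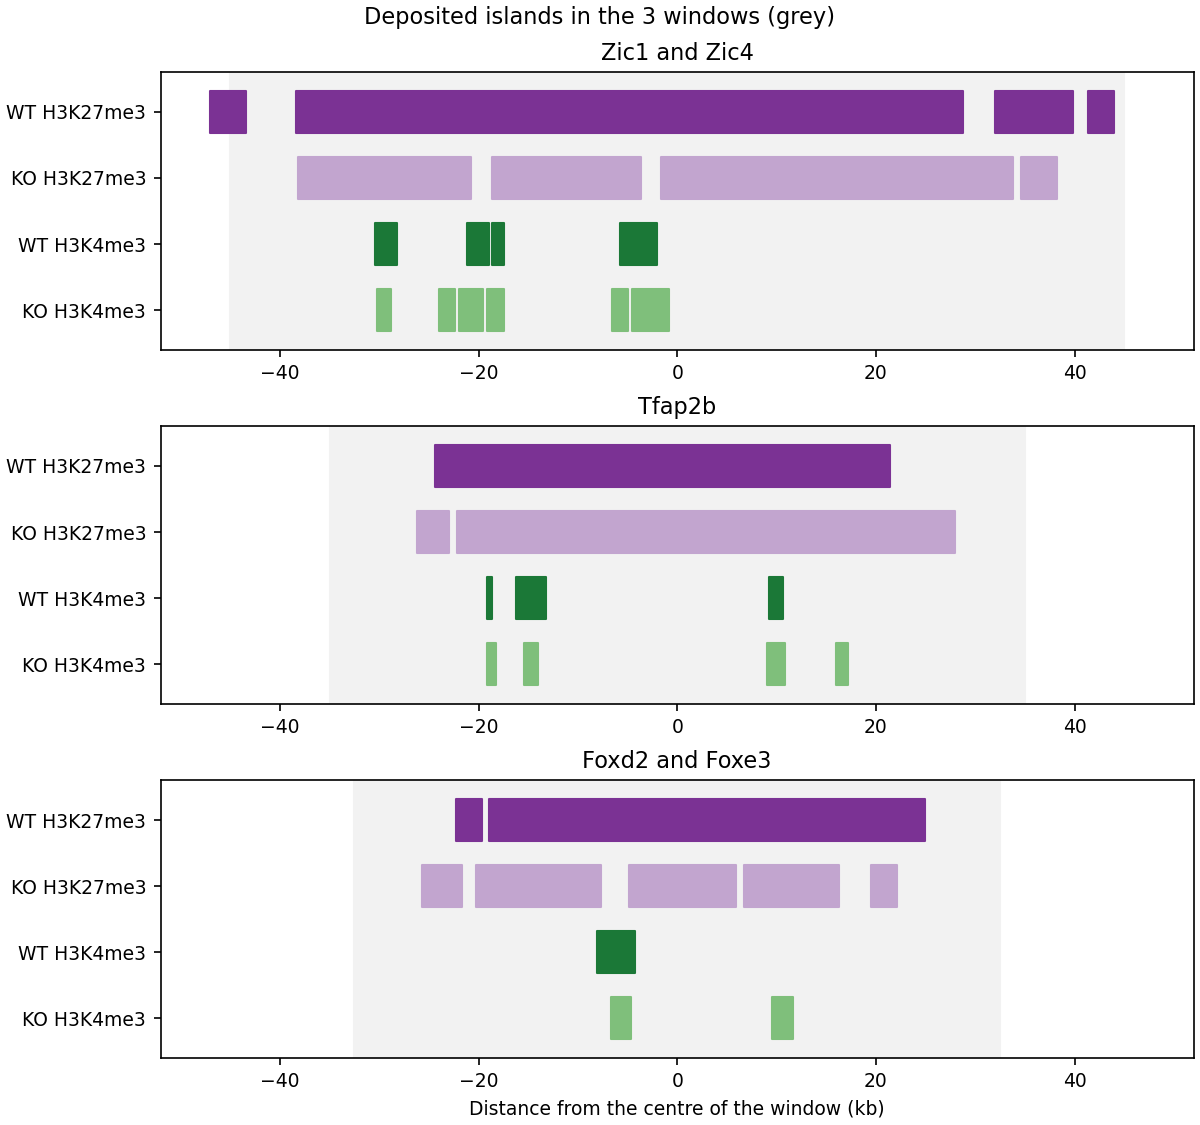
Each bar is a deposited island, drawn to scale by its distance in kb from the centre of its window (grey), with H3K27me3 in purple and H3K4me3 in green. The WT islands of 67.2 kb at Zic1 and Zic4 and of 43.8 kb at Foxd2 and Foxe3 lie over several KO islands. At Tfap2b the WT island of 45.8 kb lies over most of a KO island of 50.2 kb and part of a KO island of 3.2 kb.

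Each of the 3 long WT islands overlapped 2 or more KO islands (3 of 3). This was common among WT islands of that size: 69.1% of the 162 WT H3K27me3 islands of 20 kb or more did so, and 25.1% of the 1794 islands of 5 kb or more. The converse was also frequent, as 54.1% of 109 KO islands of 20 kb or more overlapped 2 or more WT islands, and 17.3% of 2355 of 5 kb or more. Splitting at these genes was therefore near the background for islands of 20 kb or more. It also depended on the distance allowed between islands, which the H3K27me3 lists set at 600 bp. With islands joined across 3 kb, Zic1 and Zic4 had 3 islands in WT and 1 in KO, Tfap2b had 1 in each, and Foxd2 and Foxe3 had 1 in WT and 2 in KO. The KO H3K27me3 library held fewer reads per kb of island over the whole list, 23.3 against 32.2 in WT, and the part of that density in the splitting was not tested.

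Before any scaling the KO domains held fewer reads in every window. Reads went from 4057 in WT to 2014 in KO at Zic1 and Zic4, from 2139 to 1363 at Tfap2b, and from 1717 to 922 at Foxd2 and Foxe3. Sequencing totals are not in the lists, so reads were divided by the reads of each list in regions called in both genotypes (scaled reads). The sums run over islands called separately in each genotype, so they cover different stretches. On that scale KO stood at 0.678 of WT at Zic1 and Zic4 (95% exact binomial interval 0.643 to 0.716), at 0.871 at Tfap2b (0.813 to 0.932) and at 0.734 at Foxd2 and Foxe3 (0.677 to 0.795). The intervals cover read counting error only and, since the domains were chosen with these values known, are no test. The Zic value counts the WT-only islands of 72 and 59 reads against nothing in KO, and in the region called in both genotypes it was 0.701 (0.664 to 0.740). At Tfap2b the log2 ratio of −0.20 turned to 0.035 when islands of 2-fold or more alone were kept, so its direction depended on that choice. Per kb of called length the scaled ratios were closer to each other, at 0.771, 0.747 and 0.860. The order of the genes thus changed with the measure: Tfap2b had the smallest difference by reads and the largest by reads per kb.

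Fold over input gave a smaller difference at 2 of these domains and a larger one at Tfap2b. At Zic1 and Zic4 WT had a pooled fold of 3.89 and KO of 3.20, which gives KO over WT as 0.823 (0.727 to 0.931). At Tfap2b the folds were 4.32 and 3.44, or 0.795 (0.674 to 0.939). At Foxd2 and Foxe3 they were 2.11 and 2.15, or 1.02 (0.875 to 1.19), so no direction can be given there. Input reads per kb of called length in KO were 1.12 times those in WT at Zic1 and Zic4, 1.12 times at Tfap2b and 1.01 times at Foxd2 and Foxe3. Input depth of KO relative to WT is not known, so DNA copy number cannot be read from them.

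**Figure D2:**
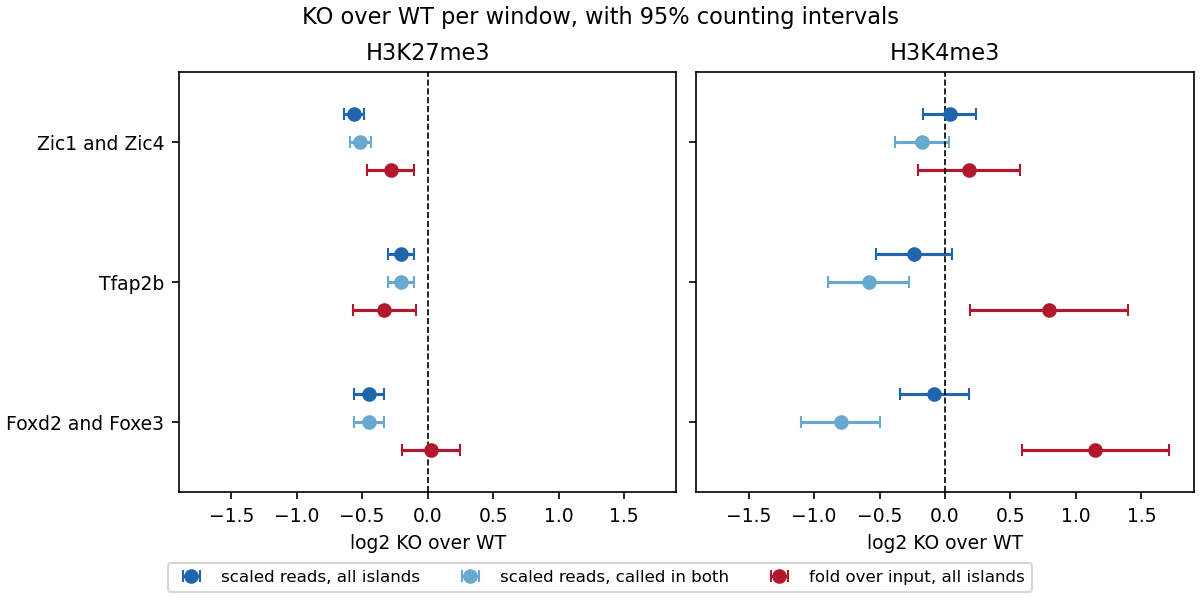
Points are the log2 KO over WT value of each window, by scaled reads over all islands (dark blue), by scaled reads in regions called in both genotypes (light blue) and by fold over input over all islands (red), with bars for 95% intervals of read counting error and a dashed line at no difference. H3K27me3 lies below 0 by scaled reads and by fold at Zic1 and Zic4 and at Tfap2b (at Tfap2b not with islands of 2-fold or more alone). H3K4me3 by scaled reads is lower in regions called in both genotypes than over all islands, and by fold its points lie above 0, with the interval at Zic1 and Zic4 spanning 0.

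These differences were of the size seen in other wide domains. There were 134 regions with H3K27me3 in both genotypes that were 20 kb or wider with a mean fold of 2 or more, and the 3 members were among the 10 widest, at ranks 6, 8 and 10. The median scaled ratio over the other 131 was 0.727, and the median fold ratio was 0.868. From the lowest scaled ratio upward, the Zic domain stood at rank 54, Foxd2 and Foxe3 at 71 and Tfap2b at 106. From the lowest fold ratio upward, Tfap2b stood at rank 45, the Zic domain at 53 and Foxd2 and Foxe3 at 117. None of the 3 regions reached a 1.5-fold difference, by scaled reads or by fold. Among all 3379 H3K27me3 regions called in both genotypes, 16.2% were 1.5-fold or more lower in KO by scaled reads and 25% by fold over input, and 27.4% and 7.87% were 1.5-fold or more higher. Among the 134 wide regions 29.9% and 11.9% were lower, and 3.73% and 0% were higher.

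**Figure D3:**
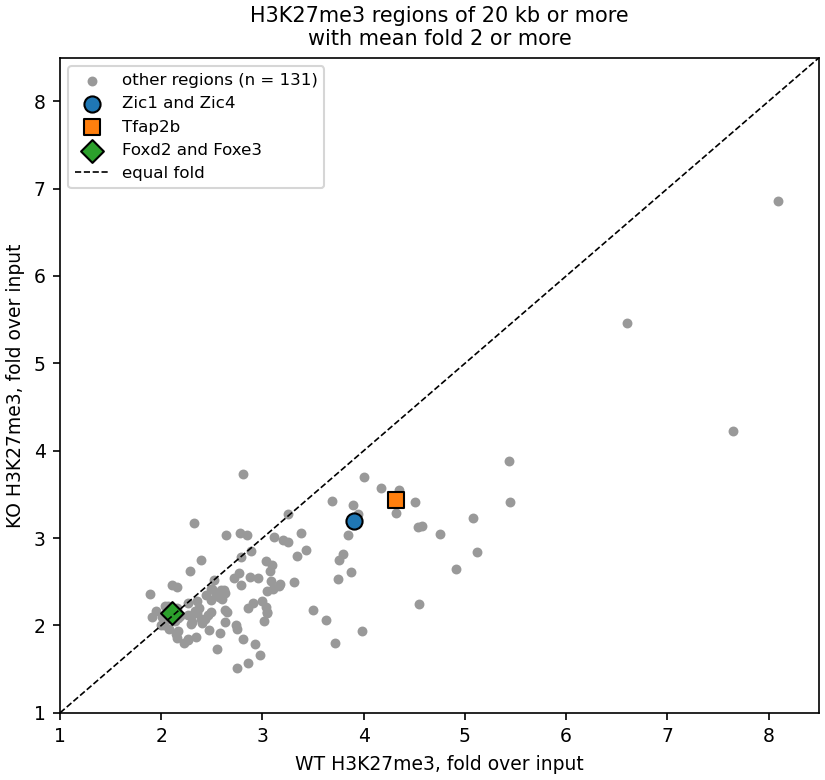
Each point is a H3K27me3 region of 20 kb or more, with a mean fold of 2 or more, called in both genotypes. WT fold over input is on the x axis, KO fold over input is on the y axis, and the dashed line marks equal fold. The Zic domain (3.91 and 3.20) and Tfap2b (4.32 and 3.44) lie below the line among the more enriched regions, and Foxd2 and Foxe3 (2.11 and 2.15) lie on it.

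In number of islands the Foxd2 and Foxe3 region, from 2 to 5, was 1 of 10 regions tied for rank 4 of 134 by gain. Over all 134 regions the islands numbered 218 in WT and 303 in KO, with more in KO in 80 regions, fewer in 23 and equal in 31. The region most like each member was found by called length and fold in both genotypes, over 2 libraries. For Foxd2 and Foxe3 it was chr2:105492801-105536200, with 2 WT and 3 KO islands, folds of 2.04 and 2.07, and a scaled ratio of 0.775. For Tfap2b it was chr6:6791001-6835400, with 1 and 3 islands, folds of 3.12 and 3.02 and a scaled ratio of 0.687. For the Zic domain it was chr13:12865601-12952000, with 5 and 1 islands, folds of 3.50 and 2.17 and a scaled ratio of 1.36, where KO input per kb was 2.47 times that of WT. By scaled reads that last region differs from the Zic domain in direction, while by fold over input KO was lower in both. The chr13 region also held 10 WT and 0 KO H3K4me3 islands, against 4 and 6 in the Zic window.

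H3K4me3 inside the domains formed islands of low enrichment. Their median length was 2200 bp in WT and 1700 bp in KO, near the 2400 and 2000 bp of the whole lists. The median over H3K4me3 islands that overlapped H3K27me3 was longer, at 3000 bp in both genotypes. The 8 WT islands were 600 to 3800 bp long and 1.33 to 2.34-fold over input, with a median of 1.72, and 6 of them were under 2-fold. The median over the 3054 WT H3K4me3 islands that overlapped H3K27me3 was 2.56, and 30.7% of those were under 2-fold. The 12 KO islands were 1000 to 3800 bp long and 1.31 to 3.91-fold, with a median of 2.60, against 3.40 over the 2780 KO islands that overlapped H3K27me3. By their median these islands were weaker than the bivalent ones in both lists, although 3 of the 12 KO islands lay above the KO median of 3.40. All 8 WT islands lay wholly under WT H3K27me3, and of the 12 KO islands 8 lay wholly and 4 partly under KO H3K27me3. Over the whole lists, 3054 of 28365 WT and 2780 of 40978 KO H3K4me3 islands overlapped H3K27me3. The windows were chosen for their wide H3K27me3 domains, so nothing is read from the member counts.

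All 8 WT H3K4me3 islands had a KO partner, and 3 of the 12 KO islands had no WT partner (25%). Over the whole WT list 5.34% of islands lacked a KO partner. Over the whole KO list 40.4% lacked a WT partner, and among KO islands under H3K27me3 18.9% did. At Zic1 and Zic4 the KO-only island was chr9:91256001-91257600, with 65 reads at 1.86-fold. At Tfap2b it was chr1:19231001-19232200, with 45 reads at 3.04-fold. At Foxd2 and Foxe3 it was chr4:114597001-114599200, with 104 reads at 2.97-fold. A place without an island has no deposited count, so the WT level there is unknown.

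At Zic1 and Zic4 the WT H3K4me3 islands held 69, 79, 40 and 166 reads at 1.44, 1.85, 1.61 and 1.83-fold. The KO islands held 55, 65, 86, 52, 53 and 166 reads at 2.40, 1.86, 1.49, 1.76, 1.31 and 2.80-fold. The strongest in KO, chr9:91275401-91279200, lay over the WT island chr9:91274201-91278000, and both held 166 reads over 3.8 kb. The fold differed because input was 51 reads in WT and 44 in KO and each list has its own ratio of ChIP to input depth. The weakest, chr9:91273401-91275000, had a deposited FDR of 0.0242.

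At Tfap2b the WT islands held 30, 83 and 75 reads at 2.11, 1.33 and 2.34-fold. The KO islands at the same places held 45, 60 and 60 reads at 3.72, 3.43 and 2.35-fold. The middle one was 3 kb long in WT and 1.4 kb in KO, and its input count was 35 in WT and 13 in KO. At Foxd2 and Foxe3 the single WT island, chr4:114579401-114583200, held 215 reads over 3.8 kb at 1.57-fold. Its KO partner, chr4:114580801-114582800, held 163 reads over 2 kb at 3.91-fold, the highest H3K4me3 fold in the 3 windows. ChIP reads per kb there were 56.6 in WT and 81.5 in KO, and input reads per kb 20.3 and 15.5.

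**Figure D4:**
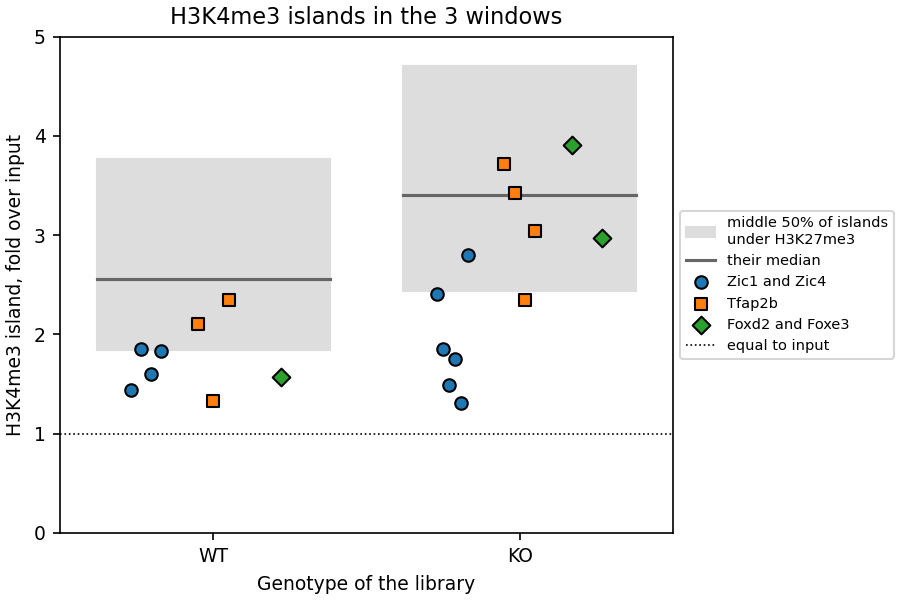
Each point is a H3K4me3 island in a window, by genotype of the library (x axis) and deposited fold over input (y axis), with the grey box and line for the middle 50% and the median of all H3K4me3 islands under H3K27me3 in that genotype. All 8 WT islands lie below the WT median of 2.56, and 3 of the 12 KO islands lie above the KO median of 3.40.

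The direction of the H3K4me3 difference depended on the scale and on the islands counted. Summed over all islands of a window, scaled reads gave a KO over WT ratio of 1.02 at Zic1 and Zic4 (0.891 to 1.18), 0.850 at Tfap2b (0.695 to 1.04) and 0.945 at Foxd2 and Foxe3 (0.786 to 1.14). These sums count the KO-only islands of 65, 45 and 104 reads against no WT count. In the regions called in both genotypes the ratio was 0.885 (0.766 to 1.02), 0.668 (0.538 to 0.827) and 0.577 (0.468 to 0.710). Called length in those regions was 9.4 kb in WT and 11 kb in KO at Zic1 and Zic4, 5 and 4.2 kb at Tfap2b, and 3.8 and 2 kb at Foxd2 and Foxe3. By fold over input, over all islands, the ratio was 1.14 (0.866 to 1.49), 1.73 (1.14 to 2.63) and 2.22 (1.51 to 3.27). The median fold ratio over all 23315 H3K4me3 regions in both genotypes was 1.58, and over the 1806 that overlapped H3K27me3 in both it was 1.54. Over all islands the intervals at Tfap2b and at Foxd2 and Foxe3 included both medians. At Zic1 and Zic4 the upper bound of 1.49 lay below both. The medians, however, leave out KO-only islands. Without those islands the fold ratio at Foxd2 and Foxe3 was 2.49 (1.57 to 3.96). Its lower bound lay above the median of 1.54 and below that of 1.58. On that same set the Tfap2b interval included both medians, and the Zic upper bound of 1.51 lay below both. The intervals cover read counting error only, and the windows were chosen with these lists known, so these comparisons are no test. Over the 1806 regions the log2 fold ratio had a lower quartile of 0.326 and an upper quartile of 0.907. Without KO-only islands it was 0.194 at Zic1 and Zic4, below the lower quartile, and 0.788 at Tfap2b, between the quartiles. At Foxd2 and Foxe3 it was 1.32, above the upper quartile.

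Taken place by place, 7 H3K4me3 regions in the windows were called in both genotypes. By fold over input 4 of the 7 were 1.5-fold or more higher in KO, against 57% of all H3K4me3 regions and 52.8% of those over H3K27me3. By scaled reads 4 of the 7 were 1.5-fold or more lower in KO, against 5.93% of all regions and 17.4% of those over H3K27me3. Called length was shorter in KO in 3 of the 7, against 19.4% and 37.4%. The windows were chosen with these lists known, and nothing is read from the share by scaled reads.

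Some of the KO gaps in H3K27me3 lay over H3K4me3. Inside WT islands of 5 kb or more in the windows there were 7 gaps between KO islands, of 0.8 to 3.2 kb. A KO H3K4me3 island overlapped 3 of them. At Zic1 and Zic4 the gap chr9:91259201-91261400 was covered to 81.8% by KO H3K4me3 and the gap chr9:91276401-91278400 to 100%. At Foxd2 and Foxe3 the gap chr4:114579801-114582600 was covered to 64.3% by the KO island of 3.91-fold. In WT the same 3 places carried H3K4me3 as well, over 81.8%, 80% and 100% of their length, with H3K27me3 called across them.

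The count of 3 of 7 was not above the background. Over all WT H3K27me3 islands of 5 kb or more, 57% of 556 KO gaps overlapped a KO H3K4me3 island. By length, KO H3K4me3 covered 52.7% of those gaps and 29.9% of the split islands. In the 3 windows it covered 44.4% of the gap length. For gaps between WT islands inside KO islands of 5 kb or more, 12.7% of 526 overlapped a WT H3K4me3 island. By length, WT H3K4me3 covered 8.66% of those gaps and 12.1% of the split KO islands. The 2 such gaps at these genes, of 3.2 kb in the Zic window and 0.8 kb in the Foxd2 and Foxe3 window, carried no WT H3K4me3 island. The KO H3K4me3 list is the longer one, 40978 islands against 28365, and its part in the difference between 57% and 12.7% was not tested.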

How the data were processed

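The series has 10 libraries. Only the island lists of the 4 ChIP libraries were used here. Per the submitters' processing notes, Bowtie (version not given), SICER 1.1 and build mm9 were used. Islands were built from windows of 200 bp at an FDR of 0.05, with gaps of 200 bp allowed in the H3K4me3 lists and 600 bp in the H3K27me3 lists, per the deposited list names. Treatment of duplicate reads is not given in the sources used here. The authors deposited ChIP and control read counts per island, neither scaled, which total 9565481 and 13512350 ChIP reads in WT and KO H3K4me3 islands and 1140878 and 839422 in H3K27me3 islands. The authors' deposited fold is a ratio of ChIP to control reads, with control reads multiplied by 1.78 (WT H3K4me3), 1.35 (KO H3K4me3), 1.68 (WT H3K27me3) and 1.03 (KO H3K27me3). The authors' deposited p-values and adjusted p-values compare ChIP with control within a library, not WT with KO. The title of the KO H3K27me3 library misprints the mark, and its antibody label was used.

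Positions are 1-based. Islands of WT and KO overlapping by 1 bp or more were merged into regions, and compared where both libraries had 20 reads or more. Intervals are 95%, exact conditional binomial for scaled reads and normal on the log scale for fold ratios. A difference of 1.5-fold was used as the call. The self-test on simulated counts changed 200 regions by 2-fold, and the median estimates of the raised and lowered sets were near the true values. It did not cover regions with few reads or islands called at different lengths in WT and KO. Overlaps differed from bedtools 2.31.1 by 0 islands. Python 3.11.15, numpy 2.4.6, pandas 2.3.3, scipy 1.17.1 and matplotlib 3.10.9 were used. The members, windows and comparisons were chosen with earlier results of these data known, and all 5 genes were named by that choice. The other regions named were, per window, the nearest in log2 called length and log2 fold of both genotypes among regions of 20 kb or more with a mean fold of 2 or more. The alternatives were other scalings, a fold of 2 or more, a stricter FDR of 1e-05, joined islands, windows widened by 10 kb and 50% overlap with H3K27me3. The smallest depth behind a printed island is 30 ChIP reads. The genes' exons and starts were not placed on the islands, which would need an mm9 annotation.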

Additional observations from a re-analysis of the deposited data

How the results depend on the processing

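No paired analysis was possible because each ChIP group has 1 library, and leaving out a replicate was not possible for the same reason. Joining across 1, 3 and 4 kb and the restriction to regions called in both genotypes were chosen after seeing the data. Of 118 alternative values, 76 stayed within the interval or within 1.5 times the count, 32 moved and 10 changed sign; except where joining or filtering removes islands by construction, the cause was not tested. For H3K27me3, the log2 ratios of −0.56 (Zic1 and Zic4), −0.20 (Tfap2b) and −0.45 (Foxd2 and Foxe3) became −0.28, −0.33 and 0.028 by fold over input and −0.37, −0.42 and −0.22 per kb. With a fold of 2 or more they became −0.33 at Zic1 and Zic4 and 0.035 at Tfap2b. KO islands joined across 2 kb numbered 2 at Zic1 and Zic4, 1 at Tfap2b and 3 at Foxd2 and Foxe3. Joined across 3 kb they numbered 1, 1 and 2 (3, 1 and 1 in WT), and across 4 kb 1, 1 and 1; Tfap2b already had 1 across 1 kb. WT islands joined across 4 kb numbered 2 at Zic1 and Zic4, and Foxd2 and Foxe3 had 1 across 1, 2, 3 or 4 kb. The Tfap2b window widened by 10 kb held 2 WT islands. For H3K4me3, the Zic log2 ratio of 0.04 became −0.068 scaled to all islands, −0.39 per kb and −0.16 at an FDR of 1e-05. At Tfap2b −0.24 became 0.79 by fold, 1.098 at an FDR of 1e-05 and 0.61 with a fold of 2 or more, and at Foxd2 and Foxe3 −0.08 became 1.15 by fold. In regions called in both genotypes the H3K4me3 log2 ratios were −0.18, −0.58 and −0.79. At an FDR of 1e-05 the H3K4me3 islands numbered 2 in WT and 3 in KO at Zic1 and Zic4, and 1 in WT at Tfap2b. With a fold of 2 or more they numbered 0 in WT and 2 in KO at Zic1 and Zic4, and 0 in WT at Foxd2 and Foxe3. KO H3K4me3 islands joined across 2 kb numbered 3 at Zic1 and Zic4, and 1 KO island at Foxd2 and Foxe3 lay under H3K27me3 over 50% of its length. Without read totals per library, a difference common to all domains could not be measured.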
